A study of Mus musculus with 6 samples.

Results

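*Gdf5*-positive cells of Day 2 digits in a dish (DID) cultures were taken as the barcodes that carried at least 2 unique molecular identifiers (UMIs, each standing for 1 captured transcript) of *Gdf5*, among barcodes with at least 3000 UMIs, at most 7500 detected genes and at most 25% of UMIs from mitochondrial genes. This rule returned 1694 of the 18691 Day 2 cells that passed the same limits, 1007 of 8949 in replicate A and 687 of 9742 in replicate B. All cells came from wildtype CD-1 mice, whose distal forelimb mesenchyme was collected at E11.5, pooled across limbs, dissociated and grown as a high-density culture with no added growth factor beyond serum. Each day of culture (Day 2, Day 7 and Day 10) was sampled as replicates A and B from separate cultures, which gave 6 scRNAseq libraries, and the pooling of limbs means that a replicate is a culture and not an animal. The same rule was applied to the Day 7 and Day 10 libraries for comparison, and all 6 libraries together held 54126 cells within the limits.

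*Gdf5* encodes a secreted ligand of the BMP family and is the classic marker of the joint interzone, the band of flattened mesenchyme that interrupts a cartilage condensation where a synovial joint will form. Interzone cells turn down cartilage matrix genes, express WNT ligands and BMP antagonists, and later give rise to articular cartilage, ligament and synovium. In the same limb bud the tissue between the digits makes retinoic acid through RDH10 and ALDH1A2, and cartilage condensations are kept low in retinoic acid by CYP26 enzymes.

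*Gdf5* lies on mouse chromosome 2, at 155941023 to 155945367 on the minus strand of GRCm38. In CPM, the UMIs of a gene summed over the cells of a class in 1 library and scaled to a total of 1000000, the positive cells held 156 and 151 CPM of *Gdf5* in replicates A and B and all other cells held 6.53 and 6.41 CPM. This gap was set by the rule and was not tested. The positive cells carried 74.1% and 70.8% of all *Gdf5* UMIs of their libraries, and a single cell held at most 16. Cells just inside the threshold, with exactly 2 UMIs, numbered 452 and 317, and cells just outside it, with 1 UMI, numbered 1204 and 970.

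The share of positive cells was 11.3% (exact binomial 95% interval 10.6 to 11.9) in replicate A and 7.05% (6.55 to 7.58) in replicate B, where intervals cover counting error only. Among cells with at least 2 UMIs of *Myod1*, a myoblast gene that should not mark interzone cells, 4 of 334 (1.20%) and 2 of 195 (1.03%) were positive, although these cells were deeper, with a median of 25486.5 and 30191 UMIs. Under the study's limits as applied here, which keep shallower cells, the share in replicate B was 4.20%. After every cell was thinned to 3000 UMIs, 7.78% and 6.09% of Day 2 cells kept at least 1 *Gdf5* UMI, against 0% and 0.513% of the *Myod1* cells. The 0% is 0 of 334 *Myod1* cells, a count that allows up to 0.898% of such cells with a *Gdf5* UMI at this thinned depth and sets no limit on expression. The positive share was lower on the later days, with 3.37% and 4.09% in the Day 7 libraries and 0.946% and 1.15% in those of Day 10. The Day 10 shares were near the 1.20% and 1.03% of positive cells among the Day 2 *Myod1* cells. Day 10 itself held only 0 and 2 *Myod1* cells. The share with at least 1 UMI after thinning was 2.77% and 4.03% for Day 7 and 0.623% and 0.874% for Day 10, in the same order of days. With 2 libraries a day the shares were not tested.

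Depth did not differ in the same way in both Day 2 replicates. Positive cells held a median of 18523 UMIs and other cells 19546.5 in replicate A, whereas in replicate B the medians were 20147 and 11828. Median mitochondrial shares were 1.96% and 1.84% in replicate A and 2.41% and 2.19% in replicate B. Total UMIs within the limits were 206448286 and 166797398. The A and B libraries of Day 2 shared 16 cell barcodes, none of them of a positive cell in both.

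The 3 further markers given with these cells were all higher in them than in the other cells of the same library. *Ebf1*, a transcription factor of early mesenchyme, stood at 675 against 270 CPM in replicate A and 649 against 265 CPM in replicate B. *Irx1*, a homeobox factor expressed in forming joints, stood at 49.8 against 8.98 CPM and 46.4 against 8.07 CPM. *Pthlh*, which encodes the PTHrP signal that delays cartilage maturation, stood at 34.2 against 14.5 CPM and 31.0 against 14.1 CPM. In both replicates the positive cells exceeded the other cells for each marker, and since the markers had been named from earlier results of these data, the Day 2 values are a description. In thinned cells *Irx1* had a UMI in 12.1% and 11.8% of positive cells, in 2.83% and 2.48% of other cells and in 0.299% and 0% of *Myod1* cells, where 0 of 195 cells allows up to 1.54% with an *Irx1* UMI at this thinned depth. *Ebf1* was broader, with a UMI in 68.0% and 67.0% of positive cells, 44.9% and 46.1% of other cells and 8.38% and 8.72% of *Myod1* cells.

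The label joint interzone was set beside a list of joint genes, as a description. The list was chosen with results of these samples known, so it is no check of the label. Of 27 genes of a joint interzone list, *Gdf5* included, the 26 that could be tested were divided into 17 higher, 2 lower and 7 not called, where 7.38% of all genes tested were higher and 14.7% lower. The 17 include *Ebf1*, *Irx1* and *Pthlh*, which were given as markers of these cells. *Aldh1a2*, *Rarb* and *Rdh10* of the interdigital retinoic acid pathway, which are not in the joint list, were among the 10 highest genes. The cells are therefore called *Gdf5*-positive cells here. Among genes that reached 10 CPM in both replicates their leading gene was *Aldh1a2* on chromosome 9, 71215789 to 71296243 on the plus strand. *Rarb* encodes a retinoic acid receptor and is itself induced by retinoic acid. The windows upstream of a RefSeq start of *Rarb* and of *Cyp26a1*, a retinoic acid degrading enzyme, are shown because, of the windows found for the retinoic acid list, these hold the same response element. They are the 250 bases before the RefSeq start site (GRCm38.p6), read 5′ to 3′ on the strand of the gene, at chr14:16575477-16575726 on the minus strand for *Rarb* and chr19:37697558-37697807 on the plus strand for *Cyp26a1*. This *Rarb* start lies inside the gene, which spans 16430839 to 16819156 on the minus strand in GENCODE. Capitals mark the match to the DR5 retinoic acid response element. It lies 53 to 37 bases before this start of *Rarb* and, on the reverse strand, 32 to 16 bases before the start of *Cyp26a1*.
Rarb: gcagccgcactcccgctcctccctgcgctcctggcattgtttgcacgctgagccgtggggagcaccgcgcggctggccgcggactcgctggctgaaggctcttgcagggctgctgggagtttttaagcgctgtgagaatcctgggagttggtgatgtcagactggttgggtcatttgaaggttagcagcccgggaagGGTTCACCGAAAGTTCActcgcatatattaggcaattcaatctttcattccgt
Cyp26a1: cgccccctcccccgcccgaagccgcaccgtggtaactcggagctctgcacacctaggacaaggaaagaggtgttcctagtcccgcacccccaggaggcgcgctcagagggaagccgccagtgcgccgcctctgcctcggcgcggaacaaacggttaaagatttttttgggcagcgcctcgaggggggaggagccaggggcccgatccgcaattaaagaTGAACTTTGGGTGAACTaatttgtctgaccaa
Searched on both strands, 32 of 32851 windows from 250 bases before to 50 bases after a start (0.0974%) held such a match. Of the 10 retinoic acid genes listed, 6 had a window and 2 had a match. A match describes the letters only, since no binding was measured.

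To ask what else set the positive cells apart, UMIs were summed over positive and over other cells in each library and compared in edgeR by its quasi-likelihood test, where each library formed a block and p-values were adjusted by Benjamini-Hochberg over 18349 genes. At an adjusted p under 0.05, 1355 genes (7.38% of those tested) were higher in the positive cells and 2693 (14.7%) were lower, of which 215 (1.17%) and 681 (3.71%) passed a 2-fold difference. Without scaling factors, a setting chosen after seeing the data, the split turned to 3083 higher and 1506 lower, so that 67.2% rather than 33.5% of called genes were higher, and the median log2 fold change of all genes moved from -0.04 to 0.10. The fitted log2 fold changes lie below the log2 ratios of CPM by the scaling factors, 0.13 in replicate A and 0.15 in replicate B. With Day 2 replicate A left out, 388 genes were higher and 1121 lower, and without replicate B, 380 and 1062. Leaving out a Day 10 library raised the counts, to 2275 and 4182 without replicate A and to 2277 and 4180 without replicate B.

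**Figure D1:**
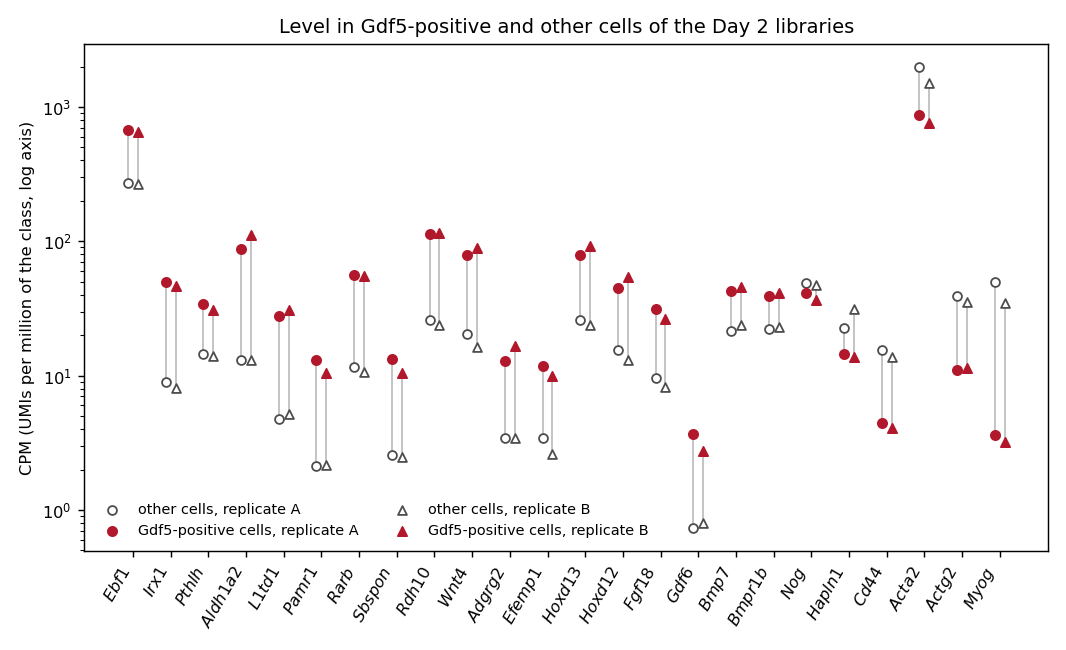
Levels of named genes in the Day 2 libraries, in CPM on a log axis. Filled symbols are *Gdf5*-positive cells and open symbols all other cells of the same library, with circles for replicate A, triangles for replicate B and a line joining the classes of a library. *Aldh1a2* goes from 13.2 to 87.2 CPM in replicate A and from 13.02 to 111 CPM in replicate B, while *Cd44*, *Acta2*, *Actg2* and *Myog* go down in both.

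Retinoic acid genes held 3 of the 10 highest places. *Aldh1a2*, which encodes the enzyme that makes retinoic acid, held 87.2 and 111 CPM in the positive cells against 13.2 and 13.02 CPM in the other cells (log2 fold change 2.76 ± 0.14 SE, adjusted p = 6.5e-08). *Rdh10*, the enzyme one step before it, held 112 and 115 CPM against 25.8 and 23.6 CPM (2.06 ± 0.07, adjusted p = 1.3e-09). *Rarb* held 56.2 and 54.9 CPM against 11.7 and 10.7 CPM (2.17 ± 0.10, adjusted p = 2e-08). All 3 were named for their rank, and each was higher in the positive cells of both replicates, as the rule asked. Of the 10 listed genes 7 were higher, 2 were lower and 1 was not called, with a median log2 fold change of 0.48 against -0.04 over all genes tested, and with either Day 2 replicate left out 4 were higher and 1 was lower. Among all genes tested 7.38% were higher and 14.7% lower, so the count of 2 lower genes is near that of all genes. The higher genes of the list included both degrading enzymes, *Cyp26a1* at 2.44 and 2.95 against 1.32 and 1.22 CPM (0.93 ± 0.29, adjusted p = 0.037) and *Cyp26b1* at 61.3 and 64.9 against 44.2 and 49.2 CPM (0.29 ± 0.07, adjusted p = 0.0072). Both calls were lost without Day 2 replicate A (adjusted p = 0.3 for *Cyp26a1* and 0.43 for *Cyp26b1*) and without replicate B (adjusted p = 0.6 and 0.2). The carrier genes parted, with *Crabp2* higher (log2 fold change 0.59 ± 0.09) and *Crabp1* lower (-0.82 ± 0.10), and *Aldh1a3*, another enzyme that makes retinoic acid, was lower (-1.17 ± 0.29), a call also lost with either replicate left out.

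The other genes among the 10 highest did not belong to that pathway. *Wnt4*, a WNT ligand of the interzone, held 79.3 and 89.1 CPM against 20.4 and 16.4 CPM (2.05 ± 0.11, adjusted p = 1.5e-07). *L1td1*, which encodes an RNA-binding protein, held 27.6 and 30.8 CPM against 4.78 and 5.22 CPM. *Pamr1* held 13.01 and 10.5 CPM against 2.11 and 2.16 CPM, and *Sbspon* 13.3 and 10.4 CPM against 2.58 and 2.49 CPM. *Adgrg2*, an adhesion receptor gene, held 12.8 and 16.7 CPM against 3.42 and 3.43 CPM, and *Efemp1*, which encodes a fibulin of the extracellular matrix, 11.7 and 10.0 CPM against 3.41 and 2.59 CPM (1.72 ± 0.28, adjusted p = 0.00074). The rule that named these genes asked for a higher level in both replicates, so this agreement is no separate result.

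The joint interzone list was chosen with results of these samples known, so its count of 17 higher of 26 is not independent evidence of the direction. Its median log2 fold change was 0.67, its higher genes ranged from 0.30 to 2.56, and between 13 and 21 of its genes were higher across the alternatives. *Irx2*, the neighbour and relative of *Irx1*, led with 9.62 and 8.53 CPM against 1.53 and 1.26 CPM (2.56 ± 0.16, adjusted p = 3.2e-07). *Gdf6*, the closest relative of *Gdf5*, was low but higher in the positive cells, at 3.66 and 2.76 CPM against 0.732 and 0.794 CPM (1.95 ± 0.23, adjusted p = 8.9e-05). The joint transcription factor genes *Creb5* (1.51 ± 0.09), *Osr1* (1.22 ± 0.08) and *Osr2* (1.07 ± 0.10) were higher, as were *Sfrp2*, a secreted WNT modulator (1.46 ± 0.09), *Jun* (0.81 ± 0.10), *Wnt16* (0.72 ± 0.11), *Vcan* (0.73 ± 0.17), *Wnt9a* (0.63 ± 0.17), *Trps1* (0.40 ± 0.06), *Has2* (0.38 ± 0.10) and *Erg* (0.30 ± 0.07). Without Day 2 replicate A and without replicate B the call was lost for *Wnt9a* (adjusted p = 0.25 and 0.52), *Has2* (0.42 and 0.1) and *Erg* (0.31 and 0.29), and for *Trps1* it was lost without replicate B (0.063). *Vcan* was not called by DESeq2 (adjusted p = 0.3).

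Some genes often used for joints went the other way or did not pass. *Cd44*, the hyaluronan receptor gene, held 4.47 and 4.04 CPM in the positive cells against 15.6 and 13.7 CPM (-1.92 ± 0.20, adjusted p = 2.1e-05). *Nog*, the BMP antagonist required for joints, held 40.9 and 36.5 CPM against 49.3 and 47.0 CPM (-0.46 ± 0.07, adjusted p = 0.00046), and its adjusted p reached 0.12 in the alternative least favourable to it. The lubricin gene *Prg4*, a mark of articular cartilage, stood at 1.76 and 1.67 CPM against 2.13 and 2.20 CPM and was not called, and neither were *Chrd*, *Enpp2*, *Dcx*, *Tgfbr2*, *Barx1* and *Lgr5*.

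BMP family ligands, receptors and antagonists did not move as a block. Of 9 ligand genes tested besides *Gdf5*, 4 were higher, namely *Gdf6*, *Bmp7* at 43.0 and 45.9 against 21.3 and 23.9 CPM (0.84 ± 0.08, adjusted p = 7.9e-06), *Gdf11* (0.70 ± 0.09) and *Bmp4* (0.32 ± 0.07). *Bmp5* was lower, at 4.34 and 4.04 against 8.76 and 9.90 CPM (-1.28 ± 0.18, adjusted p = 0.00021). Of 6 receptor genes, *Bmpr1b*, whose product is the preferred type I receptor of GDF5, was higher at 39.5 and 41.4 against 22.1 and 22.9 CPM (0.70 ± 0.07, adjusted p = 2.6e-05) and *Acvr1* was lower (-0.43 ± 0.08). Among 10 antagonist or modulator genes 5 were lower, namely *Fst* (-1.09 ± 0.23), *Grem1* (-0.81 ± 0.12), *Bmper* (-0.57 ± 0.10), *Bambi* (-0.56 ± 0.09) and *Nog*, and 3 were higher, namely *Chrdl1* (0.57 ± 0.10), *Twsg1* (0.28 ± 0.06) and *Fstl1* (0.27 ± 0.06). With either Day 2 replicate left out only 1 antagonist was higher, and the calls of *Bmp4* and *Acvr1* were lost as well. That of *Bmper* was lost without replicate B, that of *Fst* by DESeq2 (adjusted p = 0.21) and that of *Chrdl1* without dividing cells (adjusted p = 0.44). Among 12 intracellular targets and SMADs 2 were higher and 2 lower, beside 7.38% and 14.7% of all genes, so the lower count is near that of all genes. *Msx1* was higher, at 37.8 and 44.4 against 21.2 and 21.4 CPM (0.80 ± 0.12), but not called without dividing cells (adjusted p = 0.19). Lower were *Id4* (-0.40 ± 0.08) and *Msx2* (-0.23 ± 0.07). Without replicate B neither of these 2 was called, and without replicate A *Msx2* was not.

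Of 9 WNT ligand genes 5 were higher and none lower, with a median of 0.31, and 3 were higher with either Day 2 replicate left out. Besides *Wnt4*, *Wnt16* and *Wnt9a* they included *Wnt5b* at 20.7 and 17.6 against 6.32 and 5.97 CPM (1.503 ± 0.10, adjusted p = 4.9e-07). Of 18 WNT antagonists, receptors and targets 3 were higher and 6 lower, beside 7.38% and 14.7% of all genes tested. The lower ones included the secreted antagonist *Dkk1* (-0.94 ± 0.13) and the nuclear effector *Lef1* (-1.17 ± 0.10), while *Dkk3* was higher (0.999 ± 0.08). *Dkk1* was not called by DESeq2 (adjusted p = 0.5). Of 10 hedgehog and PTHrP genes 7 were higher, *Pthlh*, one of the markers, among them, and 1 was lower, with a median of 0.42. The count fell to 3 without Day 2 replicate A and to 4 without replicate B. *Hhip*, a hedgehog-binding protein and pathway target, held 38.4 and 38.4 CPM against 16.01 and 17.2 CPM (1.07 ± 0.10, adjusted p = 8.2e-06), and *Gli3* (0.84 ± 0.08), *Gli2* (0.46 ± 0.08), *Gli1* (0.38 ± 0.11), *Ptch1* (0.35 ± 0.06) and *Smo* (0.18 ± 0.06) were higher. The calls of *Gli1*, *Ptch1* and *Smo* were lost with either Day 2 replicate left out, and that of *Gli2* without replicate A. The cartilage ligand *Ihh* was lower, at 2.48 and 2.44 against 5.92 and 7.04 CPM (-1.52 ± 0.14, adjusted p = 8.6e-06).

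In the FGF list 7 of 12 genes were lower and 4 higher, with a median of -0.38, and in the TGF-beta list 2 of 11 were lower and 1 higher, shares near those of all genes (14.7% lower, 7.38% higher). *Fgf18* was higher, at 31.2 and 26.5 against 9.68 and 8.21 CPM (1.55 ± 0.11, adjusted p = 9.9e-07). Readouts of FGF signalling were lower, with *Etv4* at 5.74 and 5.71 against 14.2 and 13.2 CPM (-1.40 ± 0.13) and *Spry4* at 9.76 and 8.02 against 17.4 and 17.1 CPM (-1.09 ± 0.10). Without replicate B of Day 2 the FGF list had 1 higher and 5 lower genes. The activin subunit gene *Inhba*, at 19.6 and 23.2 against 59.9 and 52.5 CPM (-1.55 ± 0.10), and *Tgfb1* (-1.09 ± 0.13) were lower.

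Distal patterning genes were split, with 10 of 31 higher, 12 lower and a median of -0.11, beside 7.38% higher and 14.7% lower among all genes tested. The *Hox* genes of the digits were among the higher ones. *Hoxd13* held 78.8 and 91.9 CPM against 25.8 and 23.9 CPM (1.63 ± 0.10, adjusted p = 2.3e-07), *Hoxd12* 45.0 and 54.3 CPM against 15.5 and 13.03 CPM (1.65 ± 0.12, adjusted p = 9.4e-07) and *Hoxa13* 46.2 and 45.9 CPM against 19.8 and 18.9 CPM (1.11 ± 0.09, adjusted p = 4.4e-06). *Emx2* (-1.60 ± 0.18) and *Sim2* (-1.19 ± 0.17) were lower, *Sim2* not without replicate B. The number of lower genes depended on the setting and was 6 without scaling factors, 7 without replicate A and 5 without replicate B. Of 16 EBF, IRX and FOX factor genes 9 were higher and 1 lower, with a median of 0.42, and the markers *Ebf1* and *Irx1* are counted in both. *Ebf3* was among the higher ones at 113 and 119 against 45.7 and 47.2 CPM (1.18 ± 0.07, adjusted p = 1.7e-07).

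Cartilage genes showed no common direction at Day 2. Of 21 chondrocyte genes 3 were higher, 8 lower and 10 not called, with a median of -0.15, beside 7.38% higher and 14.7% lower among all genes tested. The higher ones were the chondrogenic factors *Sox9*, at 481 and 531 against 351 and 391 CPM (0.31 ± 0.06, adjusted p = 0.0017), *Sox5* (0.41 ± 0.07) and *Sox6* (0.66 ± 0.06). *Sox9* lost its call with either Day 2 replicate left out, and *Sox5* and *Acan* without replicate B. The lower ones were mainly matrix genes, such as *Hapln1* at 14.4 and 13.7 against 22.7 and 31.5 CPM (-1.05 ± 0.13, adjusted p = 6.7e-05) and *Acan* at 24.2 and 25.9 against 27.4 and 39.5 CPM (-0.53 ± 0.11, adjusted p = 0.0043). *Col2a1*, the main collagen of cartilage, stood at 587 and 628 against 610 and 710 CPM (-0.26 ± 0.08, adjusted p = 0.045), and its adjusted p rose to as much as 0.96 under the alternatives. The list gave 7 higher and 4 lower genes when 1 *Gdf5* UMI was enough, 1 higher and 8 lower when 3 were required, and 1 higher and 4 lower without Day 2 replicate B.

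Genes of neighbouring connective tissues were mostly lower. All 8 contractile and stromal genes were lower, with a median of -1.11, against 14.7% of all genes tested. *Acta2*, smooth muscle actin, held 873 and 758 CPM against 1982 and 1495 CPM (-1.22 ± 0.12, adjusted p = 1.3e-05), and *Actg2* held 11.02 and 11.4 CPM against 39.5 and 35.2 CPM (-1.89 ± 0.09, adjusted p = 6.3e-08). Perichondrial genes were lower in 6 of 9 cases and none was higher, among them *Postn* (-1.17 ± 0.09), *Thbs2* (-0.96 ± 0.10) and *Col1a1* (-0.67 ± 0.10). Of 6 osteoblast genes 3 were lower, with *Spp1* at 145 and 152 against 363 and 261 CPM (-1.20 ± 0.22). Tenocyte genes divided 3 and 3 among 10, where the tendon gene *Tnmd* was lower at 3.79 and 2.95 against 14.0 and 18.9 CPM (-2.37 ± 0.17, adjusted p = 1.1e-06) and *Htra3* was higher (0.73 ± 0.09). Among 23 matrix, adhesion and guidance genes 13 were higher and 6 lower, with the ephrin receptor gene *Epha3* at 43.0 and 41.6 against 15.9 and 18.3 CPM (1.17 ± 0.08) and the matrix glycoprotein gene *Tnc* at 67.8 and 71.3 against 134 and 131 CPM (-1.07 ± 0.09). Beside each of these lists, 7.38% of all genes tested were higher and 14.7% lower.

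Muscle, blood and immune genes were low in the positive cells. All 10 myogenic genes were lower, with a summed level of 85.3 and 54.5 CPM against 665 and 512 CPM, and, among genes that reached 10 CPM in both replicates and haemoglobin genes aside, the 10 genes of the largest negative differences were mostly genes of muscle, from *Neb* at 5.29 and 3.98 against 45.0 and 35.6 CPM (-3.26 ± 0.11) to *Myog* at 3.61 and 3.21 against 50.1 and 34.6 CPM (-3.79 ± 0.13). The 6 immune genes summed to 0.678 and 0.385 CPM against 25.7 and 13.2 CPM, with *C1qb* and *C1qc* at 0 in both replicates of positive cells and *C1qa* and *Trem2* at 0 in replicate B. The 5 erythroid genes summed to 0.587 and 2.37 CPM against 64.8 and 162 CPM, and *Hbb-bh1* was at 0 in the positive cells. When cells carrying markers of other lineages were removed from both classes, 1417 genes were higher and 2656 lower. Of the endothelial markers *Tek* alone was called, at 1.36 and 1.15 against 0.320 and 0.351 CPM (1.78 ± 0.36), a call lost without Day 2 replicate A (adjusted p = 0.28) and without replicate B (0.077), while *Cdh5* was at 0, and of the epithelial markers *Cdh1* and *Krt14* were at 0. Notch genes were lower in 3 of 8 cases, against 14.7% of all genes tested, and none was higher. The lower ones were *Dll1* (-2.96), *Lfng* (-1.87) and *Notch1* (-0.44). The calls of *Dll1* and *Notch1* did not hold in every fit with 1 library left out.

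Genes induced by tissue dissociation moved with the positive cells. Of 11 such genes 7 were higher and 1 lower at Day 2, beside 7.38% and 14.7% of all genes tested, with a median of 0.25. They summed to 2417 and 2218 CPM in the positive cells against 1597 and 1478 CPM in the others. *Fos* held 879 and 762.3 CPM against 516 and 430 CPM (0.65 ± 0.08) and *Fosb* 136 and 134 CPM against 74.5 and 66.1 CPM (0.80 ± 0.08). *Jun*, counted above with the joint genes, belongs to the same response, and the part of dissociation in these differences was not tested. The count of higher genes was 3 without Day 2 replicate A, and 4 without either Day 7 replicate.

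Division genes differed little between the classes. *Mki67*, a gene of dividing cells, stood at 256 and 276 against 199 and 211 CPM (0.23 ± 0.21, adjusted p = 0.48). Of 12 S phase genes 2 were lower and none higher, a count near the 14.7% lower among all genes tested. None of 12 G2M phase genes was called. The lower S phase genes were *Rrm2* (-0.60 ± 0.08) and *Ccne2* (-0.46 ± 0.15), the latter not with either Day 2 replicate left out. *Cdkn1a*, the p21 inhibitor gene, was lower at 75.7 and 48.8 against 191 and 127 CPM (-1.50 ± 0.09, adjusted p = 2.8e-07).

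Cells were also grouped by their number of *Gdf5* UMIs, as a description. *Irx1* went from 8.09 CPM in cells with 0 *Gdf5* UMIs to 14.4, 30.02, 43.8 and 100.4 CPM in cells with 1, 2, 3 to 4 and 5 or more in replicate A, and from 7.17 to 14.5, 26.4, 37.6 and 97.7 CPM in replicate B. *Aldh1a2* went through 12.1, 19.9, 39.6, 68.6 and 215 CPM in replicate A and 10.8, 29.0, 64.4, 85.4 and 237 CPM in replicate B. *Ebf1* reached 992 and 877 CPM in the highest class from 248 and 246 CPM in the lowest. Every class was above the one before it in both replicates, but these 3 genes were named for being higher in positive cells, so the order is no separate result.

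Other genes had another order. *Pthlh* was highest in cells with 3 to 4 UMIs, at 49.1 and 32.7 CPM, and stood at 28.8 and 31.2 CPM in cells with 5 or more. *Nog* was 48.6 and 46.2 CPM with 0 UMIs, 53.8 and 53.1 CPM with 1, and 21.9 and 25.1 CPM with 5 or more. *Sox9* was lowest with 0 UMIs, at 334 and 372 CPM, peaked at 505 and 548 CPM, and was 438 and 479 CPM with 5 or more. *Acta2* was highest with 0 UMIs, at 2080 and 1561 CPM, and lowest with 5 or more, at 629 and 427 CPM. The classes differed in depth, with a median of 19903, 17725, 17160.5, 18579.5 and 20895 UMIs in replicate A and 10727, 16164, 18867, 19175.5 and 22964.5 in replicate B, so the classes of replicate B also follow depth. When other cells were matched to the positive cells on total UMIs, 1042 genes were higher and 1503 lower.

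**Figure D2:**
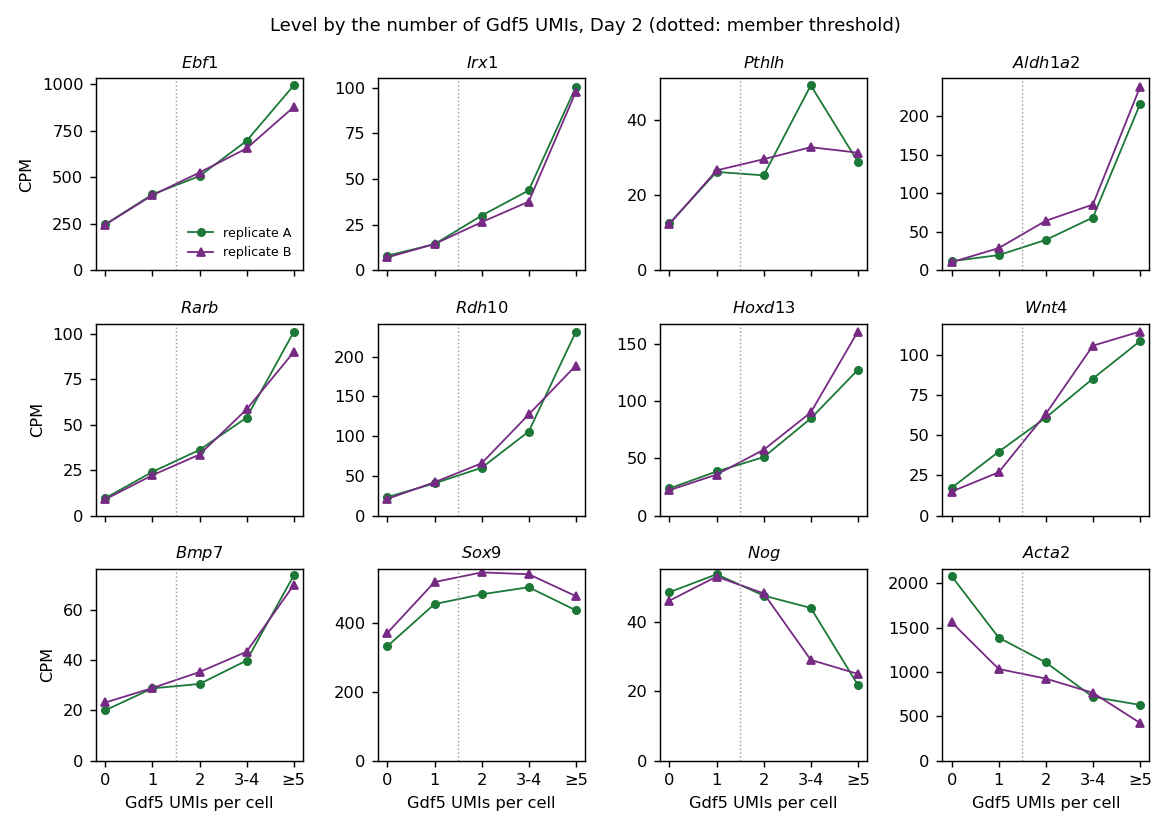
Levels of 12 genes in Day 2 cells grouped by their number of *Gdf5* UMIs (0, 1, 2, 3 to 4, 5 or more), in CPM on linear axes that start at 0, for replicates A and B. The dotted line marks the threshold of 2 UMIs. *Ebf1*, *Irx1*, *Aldh1a2*, *Rarb*, *Rdh10*, *Hoxd13*, *Wnt4* and *Bmp7* are highest in the last class, *Nog* is lowest with 5 or more, and *Acta2* is highest with 0 UMIs.

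The positive cells were not uniform. To describe their range, the cells of each replicate were divided into 3 equal parts by the share of their UMIs from 9 cartilage genes, which gave 336, 336 and 335 cells in replicate A and 229 in each part of replicate B. The parts met at shares of 0.0858% and 0.216% in replicate A and 0.0843% and 0.219% in replicate B, with 56, 61, 45 and 50 cells within 10% of these boundaries, so the parts are ranges and not cell types. *Aldh1a2* stood at 210 and 266 CPM in the part with the lowest cartilage share, 34.0 and 40.1 CPM in the middle and 9.80 and 9.19 CPM in the highest. *Irx1* went from 85.7 and 80.8 CPM through 36.2 and 34.6 CPM to 25.1 and 20.0 CPM. *Rdh10* (198 and 200 CPM in the lowest, 50.9 and 52.3 CPM in the highest), *Hoxd13* (124 and 145, then 45.9 and 48.6 CPM), *Msx1* (74.1 and 95.6, then 15.9 and 15.1 CPM) and *Fgf18* (52.6 and 41.6, then 7.46 and 7.35 CPM) shared this order in both replicates.

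A second group of genes ran the other way. *Pthlh* rose across the parts from 13.1 and 8.83 CPM to 61.8 and 59.6 CPM, *Nog* from 15.2 and 11.7 CPM to 81.4 and 86.2 CPM, and *Erg* from 30.3 and 26.9 CPM to 96.9 and 104 CPM. *Ihh*, low in the whole group, reached 6.87 and 6.53 CPM in the part with the highest cartilage share. *Sox9* went from 276 and 277 CPM to 753 and 820 CPM, and *Cyp26b1* from 37.5 and 47.2 CPM to 90.1 and 94.1 CPM. *Wnt4* was highest in the middle part of both replicates, at 102 and 168 CPM. *Gdf5*, whose UMIs define the class, stood at 170, 151 and 145 CPM in replicate A and 164, 153 and 134 CPM in replicate B. Dissociation genes had a median share per cell of 0.197%, 0.234% and 0.301% in the parts of replicate A and 0.127%, 0.234% and 0.254% in replicate B, contractile genes one of 0.0669%, 0.0546% and 0.0439% and of 0.0679%, 0.0498% and 0.0384%, and the median of myogenic UMIs was 0 in every part.

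**Figure D3:**
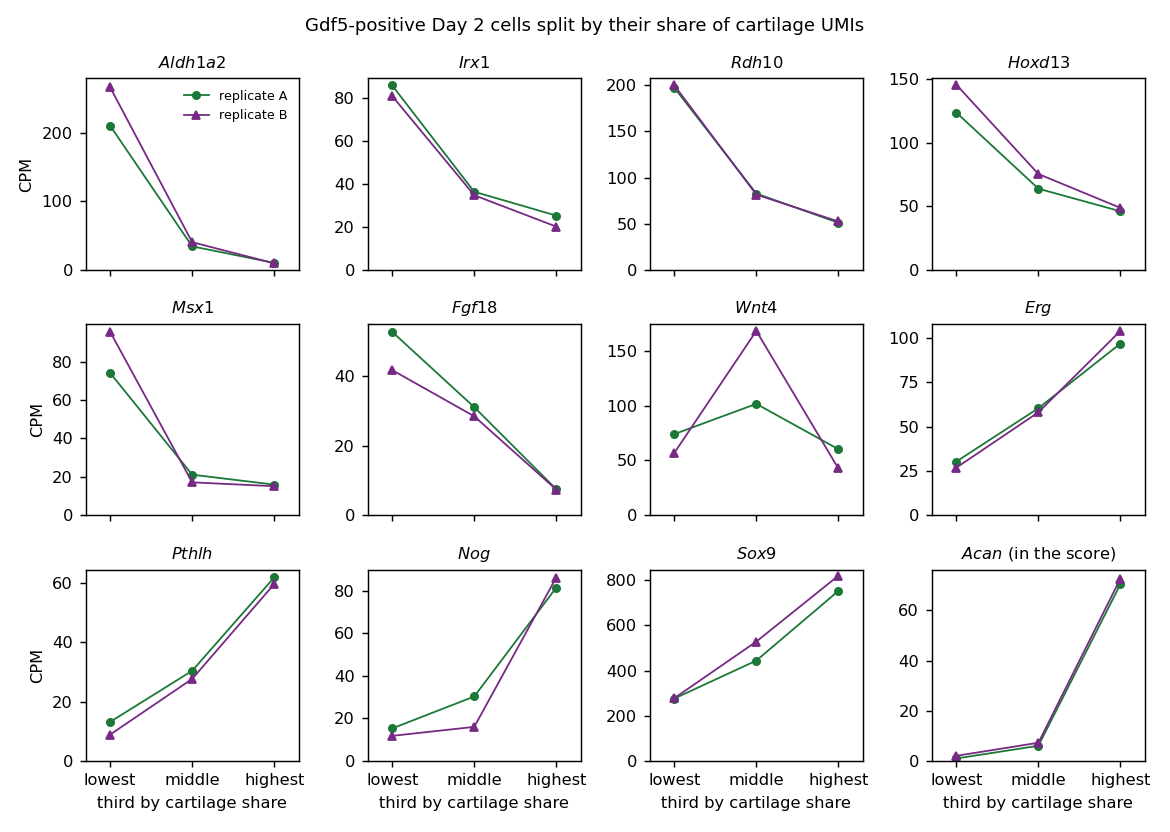
Levels of 12 genes in the *Gdf5*-positive Day 2 cells of replicates A and B, divided into parts of equal size by the share of UMIs from 9 cartilage genes, in CPM on linear axes that start at 0. *Acan* is one of the 9 genes and follows the division by construction. *Aldh1a2*, *Irx1*, *Rdh10*, *Hoxd13*, *Msx1* and *Fgf18* are highest where cartilage genes are lowest, *Erg*, *Pthlh*, *Nog* and *Sox9* are highest where they are highest, and *Wnt4* peaks in the middle.

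Cells with UMIs of both genes of a pair were counted after thinning to 3000 UMIs. *Aldh1a2* and *Irx1* were found together in 28 positive cells in A and 23 in B, where 12.5 and 8.72 would be found if they were independent. *Aldh1a2* and *Hoxd13* were found together in 41 and 44 cells against 20.6 and 16.05, and *Aldh1a2* and *Rarb* in 30 and 24 against 14.1 and 9.80. *Aldh1a2* and *Acan* shared 1 and 3 cells against 6.44 and 5.17, and *Aldh1a2* and *Nog* 7 and 2 against 9.82 and 6.14. *Irx1* and *Pthlh* shared 11 and 7 cells against 12.2 and 5.90. *Wnt4* and *Irx1* shared 29 and 12 cells against 21.3 and 13.2, and *Wnt4* and *Pthlh* 16 and 10 against 17.7 and 8.15. These counts are few and are given as a description, with no test.

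To see which differences recurred, the same rule was applied to Day 7, where it returned 315 of 9355 and 383 of 9373 cells, and to Day 10, where it returned 79 of 8350 and 96 of 8357. At Day 7 positive and other cells held a median of 22205 and 19504 UMIs in replicate A and 11412 and 18635 in replicate B. At Day 10 the positive cells were deeper in both replicates, with 37050 against 29290 and 34513 against 27821. At Day 7, 1124 genes (6.13%) were higher and 1205 (6.57%) lower in the positive cells, and at Day 10, 612 (3.34%) were higher and 1651 (9%) lower. Of the 1355 genes that were higher at Day 2, 467 (34.5%) were also higher at Day 7 and 55 (4.06%) at Day 10, while 214 (15.8%) were lower at Day 10. Those 467 and 55 genes were 41.5% and 8.99% of the genes higher on the later day. Of the 2693 lower genes, 749 (27.8%) were lower at Day 7 and 560 (20.8%) at Day 10. The difference between positive and other cells itself changed from Day 2 to Day 7 for 865 genes (4.71%), upward for 3.16% and downward for 1.55% of the genes tested, and from Day 2 to Day 10 for 2137 genes (11.6%), upward for 5.4% and downward for 6.25%.

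Day 10 rests on few cells that differ between replicates. Of 79 positive cells in replicate A 46 held exactly 2 *Gdf5* UMIs, and of 96 in replicate B 50 did. Their share of all cells was near that of positive cells among the Day 2 *Myod1* cells. In the positive cells *C1qa* had 0 UMIs in replicate A and 55 in replicate B, *Mki67* had 20 and 195, and *Efemp1* 13 and 149, and *S100a6* stood at 839 and 3742 CPM.

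The joint interzone list was counted on the later days in the same way, with the same limit on how it was chosen. At Day 7, 17 of the 26 joint genes were higher and 3 lower, with a median of 0.79, and at Day 10, 2 were higher and 5 lower, with a median of -0.34. Among all genes tested 6.13% were higher and 6.57% lower at Day 7, and 3.34% and 9% at Day 10. Apart from the markers and *Wnt4*, which was named for its Day 2 rank, the change of the difference from Day 2 to Day 7 was called upward for *Gdf6*, *Osr1*, *Osr2*, *Dcx* and *Creb5* and downward for *Wnt16*, *Irx2* and *Sfrp2*. *Wnt16* was lower at Day 7 (-1.10, adjusted p = 0.00086). Leaving out Day 7 replicate A left 13 higher and 1 lower at Day 7, and leaving out replicate B left 8 and 2. With the same genes left aside, the change from Day 2 to Day 10 was called downward for *Wnt16*, *Erg*, *Osr1*, *Trps1*, *Creb5*, *Lgr5*, *Jun*, *Irx2*, *Sfrp2*, *Prg4* and *Vcan* and upward for *Nog*. *Irx1* was still higher at Day 7, at 5.48 and 6.18 against 2.80 and 2.63 CPM (1.02 ± 0.17, adjusted p = 0.0012) and a change of the log2 fold change from Day 2 of -1.33. At Day 10 it stood at 2.31 and 1.69 against 3.85 and 3.48 CPM (-0.92 ± 0.32, adjusted p = 0.081), a change from Day 2 of -3.28. *Irx1*, *Ebf1* and *Pthlh* were named from their Day 2 values, which favours a smaller difference on any later day, so changes from Day 2 are given for them with no test.

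*Ebf1* and *Pthlh* were also higher at Day 7. *Ebf1* stood at 166 and 231 against 89.1 and 93.8 CPM (1.02 ± 0.08, adjusted p = 2e-06) and *Pthlh* at 3.13 and 6.03 against 1.73 and 2.37 CPM (1.07 ± 0.20, adjusted p = 0.0035). At Day 10 *Ebf1* stood at 55.2 and 60.5 against 65.8 and 71.8 CPM (-0.29 ± 0.10, adjusted p = 0.08) and *Pthlh* at 0.661 and 0.282 against 0.957 and 0.900 CPM (-1.06 ± 0.69, adjusted p = 0.4), with changes from Day 2 of -1.45 and -2.11.

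Another set of joint genes was further apart at Day 7 than at Day 2. *Gdf6* stood at 13.8 and 25.3 against 0.973 and 1.62 CPM (3.83 ± 0.20, adjusted p = 1.2e-07), *Osr2* at 22.7 and 28.6 against 3.56 and 4.55 CPM (2.59 ± 0.12, adjusted p = 2e-08) and *Osr1* at 102 and 150 against 20.8 and 25.1 CPM (2.37 ± 0.09, adjusted p = 3.3e-09). *Dcx*, not called at Day 2 at 8.27 and 7.57 against 5.59 and 5.95 CPM, stood at 28.2 and 38.5 against 1.88 and 2.62 CPM at Day 7 (3.82 ± 0.13, adjusted p = 4.8e-09), and *Creb5* at 82.6 and 122 against 16.7 and 18.4 CPM (2.45 ± 0.10). For each of these 5 genes the change from Day 2 was called, with adjusted p = 0.0021, 6.7e-05, 6.7e-05, 9.4e-07 and 0.00088. At Day 10 *Gdf6* and *Dcx* had no UMI in the positive cells of either replicate, which summed to only 3027695 and 3551917 UMIs. Neither gene was called at Day 10 or for the change from Day 2, so no loss is shown.

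**Figure D4:**
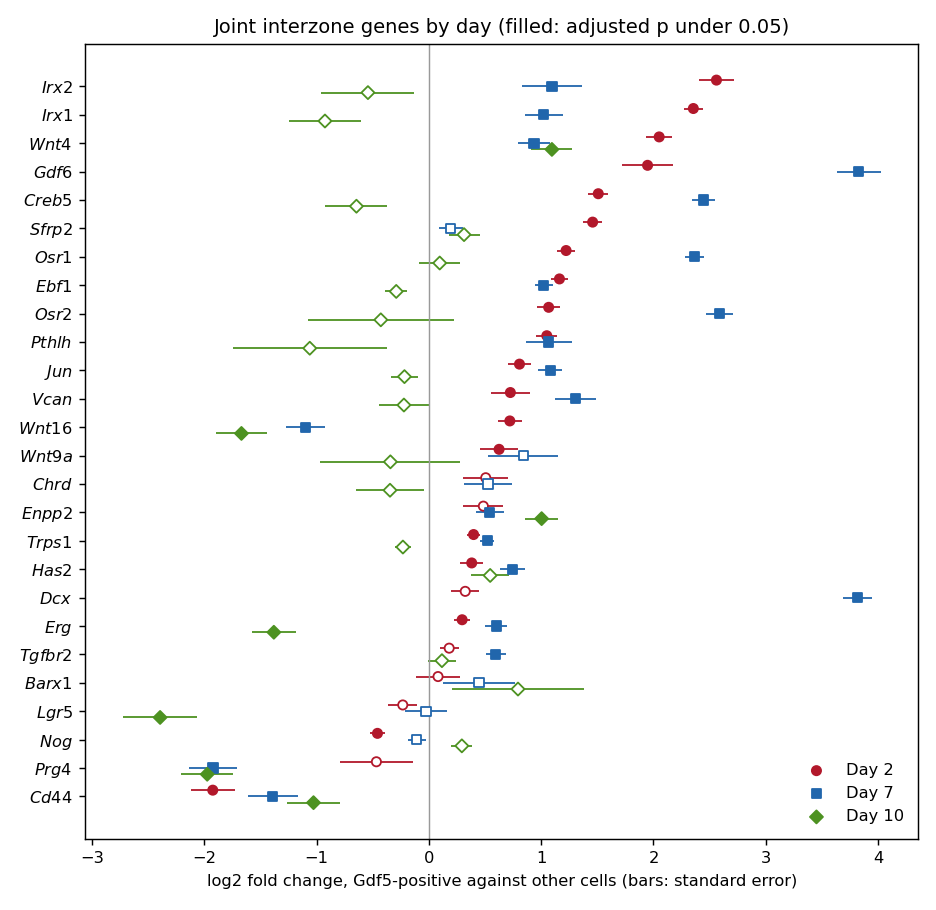
Log2 fold change of each joint interzone gene between *Gdf5*-positive and other cells at Day 2 (circles), Day 7 (squares) and Day 10 (diamonds), with standard errors as bars and filled symbols where the adjusted p was under 0.05. *Ebf1*, *Irx1* and *Pthlh* at Day 2 are descriptions, and *Gdf6* and *Dcx* have no Day 10 symbol because their count was 0 in the positive cells. Day 2 and Day 7 symbols lie mostly to the right of 0, and *Irx1*, *Irx2*, *Creb5*, *Osr1* and *Erg* are near or left of 0 at Day 10.

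The retinoic acid genes highest at Day 2 were followed to the later days, and since they were named for their Day 2 rank, a smaller later difference is favoured by that choice. *Aldh1a2* fell to 0.652 and 3.74 CPM in the Day 7 positive cells against 2.26 and 1.88 CPM in the others (-0.04 ± 0.43, adjusted p = 0.97) and to 1.65 and 3.66 against 1.85 and 2.44 CPM at Day 10 (0.28 ± 0.57, adjusted p = 0.81). Its change from Day 2 was -2.80 at Day 7 and -2.48 at Day 10. *Rdh10* stood at 16.2 and 13.8 against 11.96 and 11.1 CPM at Day 7 (0.31 ± 0.11, adjusted p = 0.1), a change from Day 2 of -1.75. *Rarb* was higher at Day 7, at 11.7 and 19.5 against 2.68 and 2.95 CPM (2.38 ± 0.15, adjusted p = 3.2e-07), and at Day 10 it stood at 0.991 and 0.563 against 1.27 and 1.18 CPM. Of the 10 list genes 1 was higher and 1 lower at Day 7, beside 6.13% and 6.57% of all genes tested. At Day 10, 2 were higher and 1 lower, beside 3.34% and 9%. Apart from the higher genes at Day 10, these counts are near those of all genes.

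Of the 10 genes highest at Day 2, 5 were also higher at Day 7 and 2 at Day 10, *Wnt4* and *Efemp1*. *Wnt4* was the steadier of these, at 34.8 and 33.5 against 16.2 and 17.8 CPM at Day 7 (0.94 ± 0.14, adjusted p = 0.00066) and 41.3 and 28.7 against 15.1 and 16.3 CPM at Day 10 (1.10 ± 0.18, adjusted p = 0.0014). *Efemp1* stood at 4.29 CPM in the positive cells of Day 10 replicate A and 41.9 CPM in replicate B, against 4.10 and 5.85 CPM in the others, so its Day 10 call rests on 1 library. Without Day 10 replicate B its change from Day 2 was -1.67.

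Cartilage genes set the Day 10 positive cells apart from those of Day 2. At Day 10, 20 of 21 chondrocyte genes were higher and none lower, with a median of 1.13 and a range of 0.30 to 1.39 among the called genes, against 3.34% of all genes higher. At Day 7, 3 were higher and none lower, with a median of 0.03. The change from Day 2 to Day 10 was called for 19 of the 21 genes, all of them upward, and between 17 and 20 across the alternatives. *Col2a1* stood at 15261 and 11529 CPM against 5410 and 5197 CPM at Day 10 (1.28 ± 0.09, adjusted p = 1.4e-06), and *Acan* at 1960 and 1403 against 709 and 648 CPM (1.25 ± 0.10, adjusted p = 4.7e-06). *Ihh* went from lower at Day 2 to higher at Day 10, at 74.3 and 73.5 against 26.1 and 26.6 CPM (1.45 ± 0.09, adjusted p = 1.3e-06), and *Pth1r*, the PTHrP receptor gene, stood at 504 and 382 against 187 and 203 CPM (1.13 ± 0.11, adjusted p = 1.7e-05).

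Contractile genes were lower on all days, with 7 of 8 lower at Day 7 and 7 at Day 10, and medians of -1.38 and -1.51. *Actg2* was the farthest apart, at 8.48 and 13.6 against 62.4 and 77.9 CPM at Day 7 (-2.75 ± 0.11) and 7.93 and 13.8 against 130 and 141 CPM at Day 10 (-3.66 ± 0.14). Dissociation genes were higher in 10 of 11 cases at Day 7, with a median of 1.20, and lower in 5 with none higher at Day 10, with a median of -0.33. Beside both lists, 6.13% of all genes tested were higher and 6.57% lower at Day 7, and 3.34% and 9% at Day 10. *Fos* stood at 740 and 799 against 282 and 313 CPM at Day 7 (1.30 ± 0.08) and at 187 and 281 against 318 and 331 CPM at Day 10 (-0.53 ± 0.09). *Jun* of the joint list had log2 fold changes of 0.81, 1.08 and -0.22 on these days, in the same order, and the part of dissociation in this order was not tested.

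**Figure D5:**
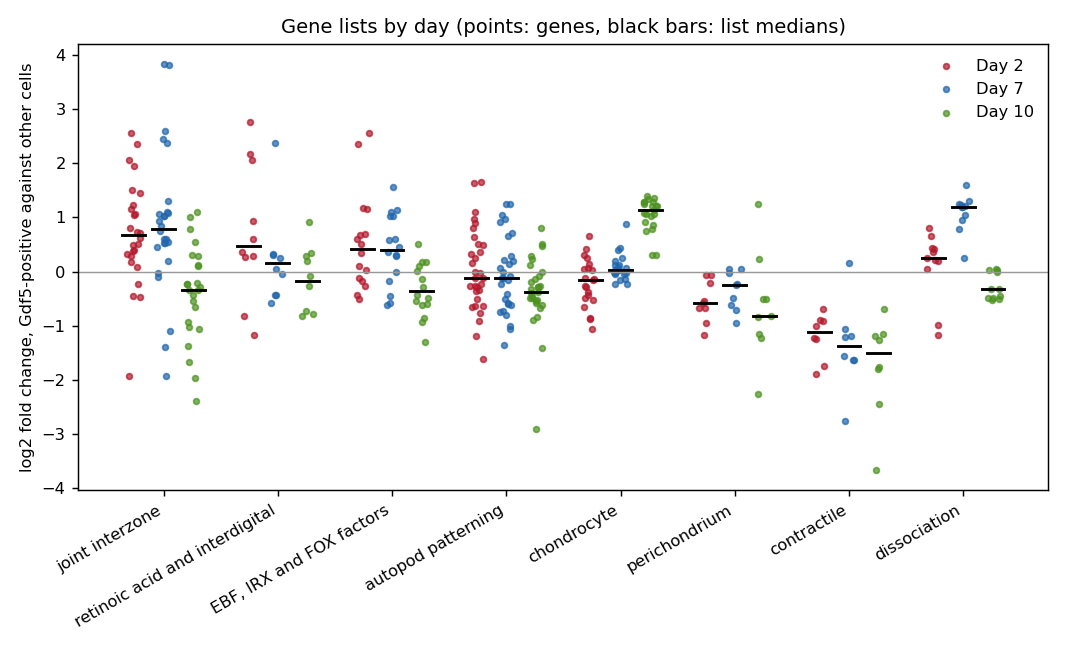
Log2 fold change between *Gdf5*-positive and other cells for the genes of 8 lists at Day 2, Day 7 and Day 10, where each point is a gene and each black bar the median of a list. A gene with a count of 0 in the positive cells of either replicate on a day has no point there but is included in the median. The joint interzone median is 0.67, 0.79 and -0.34 on the 3 days and the chondrocyte median -0.15, 0.03 and 1.13, whereas contractile genes lie below 0 on all of them apart from 1 gene at Day 7.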

How the data were processed

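Distal forelimb mesenchyme of CD-1 mouse embryos, grown as DID cultures, was profiled by 10x 3′ scRNAseq at Day 2, Day 7 and Day 10 in replicates A and B. The authors deposited raw UMI counts per barcode for 32286 features, and their processing notes name Cell Ranger 6.1.2, STAR, Seurat 4.1.0 and the builds GRCm38 and mm10. Columns of other samples numbered 0. The Day 2 tables held 11518 and 20188 barcodes, of which 8949 and 9742 had at least 3000 UMIs, at most 7500 genes and at most 25% mitochondrial UMIs, and the study's limits, as applied here with gene patterns that may differ from its own, kept 9448 and 16490.

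Counts of *Gdf5*-positive and of other cells were summed per library, which gave 12 sums from 6 libraries, so that cells were not treated as replicates. The sums were fitted in edgeR 4.0.16 (R 4.3.3) by the quasi-likelihood test, with filterByExpr, TMM factors, the library as a block and 1 effect of the positive class per day, and differences between days were tested in the same fit. Adjusted p is by Benjamini-Hochberg over 18349 genes, and the fit had 3 residual degrees of freedom. A standard error (SE) here is the absolute log2 fold change divided by the square root of the F statistic of the test. The steps were tested on simulated data. Shares compared across depths were taken after thinning each cell to 3000 UMIs, intervals are exact Clopper-Pearson intervals, a count of 0 was given an upper limit of 3 cells, and both cover counting error only. No doublets were removed, and an alternative left out the 10% of cells with most UMIs. Gene positions are from GENCODE on GRCm38, where 339 of 339 genes matched by identifier, and upstream sequences are from RefSeq on GRCm38.p6. Python 3.11.15, pandas 2.3.3, scipy 1.17.1 and matplotlib 3.10.9 were used, and DESeq2 1.42.0 served as an alternative.

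The members, gene lists and tests were chosen with earlier results of these data known. A gene first listed with the joint genes was taken out of the list, for a reason that does not depend on its values, and is not reported here. The genes named were the markers, the 10 highest and 10 lowest called genes that moved the same way in both replicates and reached 10 CPM in both (predicted, ribosomal, mitochondrial and haemoglobin genes left out), up to 4 called genes per list, and all joint, BMP ligand, receptor and antagonist genes. *Sox9*, *Sox5*, *Col2a1*, *Acan*, *Hoxa13*, *Cyp26a1*, *Cyp26b1*, *Crabp2*, *Ptch1*, *Gli1*, *Smo*, *Mki67*, *Fos*, the genes followed through the parts of the positive cells and others shown at Day 7 and Day 10 were chosen after their values were seen. Alternatives changed the scaling, the low-count filter, the *Gdf5* threshold, the cell filters, the cells compared and the libraries.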

Additional observations from a re-analysis of the deposited data

Results flagged for a closer look

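The difference between *Gdf5*-positive and other cells was itself tested between days in edgeR, and values here are changes of the log2 fold change at an adjusted p under 0.05. From Day 2 to Day 7 it changed for 865 genes. *Ebf1*, *Irx1*, *Pthlh* and the 10 highest genes were named from their Day 2 values, which favours a smaller later difference. For them the threshold decided only which changes are printed, and it is not a test. Their changes at Day 7, as descriptions, were *Irx1* (-1.33), *Aldh1a2* (-2.80), *Sbspon* (-2.67), *Rdh10* (-1.75), *Wnt4* (-1.12) and *Adgrg2* (-1.44). Among the other named genes the difference was smaller or more negative at Day 7 for *Wnt16* (-1.82), *Irx2* (-1.46) and *Sfrp2* (-1.26). It was larger at Day 7 for *Gdf6* (1.88), *Osr1* (1.14), *Osr2* (1.52), *Dcx* (3.49) and *Creb5* (0.94).

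From Day 2 to Day 10 the difference changed for 2137 genes. For the genes named from their Day 2 values the changes, again as descriptions and not tests, were *Ebf1* (-1.45), *Irx1* (-3.28), *Pthlh* (-2.11), *Aldh1a2* (-2.48), *Pamr1* (-3.76), *Rarb* (-2.90), *Sbspon* (-3.23), *Rdh10* (-2.13), *Wnt4* (-0.96) and *Adgrg2* (-1.52). Among the other named genes the difference was smaller or more negative at Day 10 for *Wnt16* (-2.39), *Erg* (-1.68), *Osr1* (-1.13), *Trps1* (-0.63), *Creb5* (-2.15), *Lgr5* (-2.16), *Jun* (-1.02), *Irx2* (-3.10), *Sfrp2* (-1.14), *Prg4* (-1.51) and *Vcan* (-0.95). For *Nog* the change was upward (0.75), from -0.46 at Day 2 to 0.29 at Day 10, where *Nog* was not called. The Day 10 classes held 79 and 96 positive cells, against 1007 and 687 at Day 2.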

How the results depend on the processing

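Each positive class was compared with the other cells of the same library, so the library was a block. Without the block 1300 genes were higher and 2226 lower at Day 2, and of 178 called named genes 18 lost the call. The call was lost or reversed for 43 of them without Day 2 replicate A, 53 without replicate B, 32 without dividing cells (of 177) and 30 by DESeq2. Over all alternatives these 178 genes gave 3731 values, of which 3393 kept the call and direction, 331 lost the call and 7 reversed.

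At Day 2 the genes higher numbered 3083 without scaling factors (chosen after seeing the data), 2949 with the Day 2 libraries alone, 2045 with 1 *Gdf5* UMI as the threshold and 768 without dividing cells. The genes lower numbered 1671 by DESeq2, 1506 without scaling factors, 1420 without dividing cells and 1503 with other cells matched on UMIs. Thresholds of 1 and 3 UMIs gave 4705 and 756 called genes at Day 10, 1851 and 560 for the change to Day 7, and 4129 and 961 for the change to Day 10. No low-count filter gave 1503 for the change to Day 7, and thinned selection 1258 for the change to Day 10. Leaving out 1 library at a time, with a lone replicate assumed to vary like the others, gave 380 to 2277 genes higher and 1062 to 4182 lower at Day 2, 486 to 4094 called at Day 7, 1437 to 2955 at Day 10, 247 to 2364 for the change to Day 7 and 1505 to 3060 for the change to Day 10. The cause was not tested.

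Shares of cells with at least 1 *Gdf5* UMI after thinning to 3000 UMIs, where depth and threshold both differ from the main rule, were 7.78% and 6.09% at Day 2, 2.77% at Day 7 in replicate A, and 0.623% and 0.874% at Day 10. The study's limits as applied here, which keep shallower cells, gave 4.20% in Day 2 replicate B, 2.33% and 3.12% at Day 7 and 0.905% in Day 10 replicate B.

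With 1 UMI as the threshold the log2 fold change reversed for *Matn4* (0.11) and *Asb4* (0.22) at Day 2, *Nog* (0.24) at Day 7, *Sfrp2* (-0.28) and *Crabp1* (-0.58) at Day 10 and *Trps1* (-0.28) between Day 2 and Day 7. With 3 UMIs *Crabp1* reversed at Day 10 (-1.59) and between Day 2 and Day 10 (-0.59), and with thinned selection at Day 10 (-0.80). Without dividing cells *Sfrp2* (-1.17) and *Matn4* (-0.011) reversed at Day 10. *Vcan* at Day 10 was -1.09 without Day 10 replicate A and 0.39 without replicate B, and the change of *Efemp1* from Day 2 was 1.06 and -1.67. Removing cells with markers of other lineages left *Klhl41* (0.13), *Myod1* (0.0063), *Msc* (0.39), *C1qa* (1.14), *Tyrobp* (0.67), *Hba-x* (0.64) and *Erbb3* (0.017) reversed at Day 2, where the cells that hold these transcripts were taken out by construction.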

Other observations

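More genes followed the division of the Day 2 positive cells by cartilage share. *Bmp4* stood at 158 and 159 CPM in the part with the lowest cartilage share and at 60.7 and 57.0 CPM in the highest, and *Bmp7* at 60.5 and 63.6 against 32.2 and 32.7 CPM. *Crabp2*, a retinoic acid carrier, stood at 293 and 290 against 117 and 109 CPM. Higher where cartilage genes were high were the BMP antagonist *Chrdl1*, from 6.43 and 6.85 to 36.4 and 34.9 CPM, the forkhead factor *Foxc1*, from 172 and 158 to 329 and 367 CPM, and *Fgfr3*, an FGF receptor of proliferating chondrocytes, from 3.94 and 4.87 to 27.0 and 29.4 CPM. Both replicates gave the same order for each of these genes. The genes were chosen after their values were seen and no test was made.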
